A study of Mus musculus with 2 samples.

Results

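The 37 genes described here encode the enzymes of glycolysis, the lactate dehydrogenases, the carriers that bring glucose and lactate into the cell, and the subunits of the pyruvate dehydrogenase complex, with each germ-cell form set beside its somatic counterparts. They were chosen by gene symbol, without use of measured values, and all 37 were found among the 23234 genes of the deposited table. The data are RNA-seq of round spermatids of C57BL/6 mice, which are male germ cells that have completed meiosis but are still round. There was 1 library labelled Epc-dKO, from mice deficient for both Epc1 and Epc2, and 1 library from wild-type (WT) mice. The labels give no age, no Cre driver and no number of animals, and both libraries share strain, cell type and library kit.

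Glycolysis splits glucose into pyruvate and yields ATP without oxygen. In sperm its enzymes are bound along the fibrous sheath of the tail, and many steps use an isozyme made only or mainly in germ cells, several of them encoded by retrogenes, which are intronless copies of a somatic gene. The X-linked genes Pgk1 and Pdha1 are silenced with the X chromosome in meiosis, and the autosomal retrogenes Pgk2 and Pdha2 supply the same enzymes afterwards. Spermatids are known to take up lactate and pyruvate made by Sertoli cells.

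Levels are given as FPKM, fragments per kilobase of transcript scaled to library size, so that levels of different genes can be compared per length. The read depth is unknown, and no counting interval can be given. The FPKM values of all genes summed to 198081 in the library labelled Epc-dKO and 193611 in the WT library. Epc1 had an FPKM of 13.6 in the library labelled Epc-dKO and 11.4 in the WT library, and Epc2 had 10.5 and 7.12 in that order of libraries, so neither targeted gene was lower. A gene-level FPKM also counts exons outside a deleted part and does not check the genotype. Since each genotype has 1 library, the differences have no replicate check and p-values are not given. Each difference is the log2 ratio of FPKM + 1, Epc-dKO over WT, and it is too small for weakly expressed genes because of the added 1. "Rose" and "fell" are kept for genes with a mean FPKM of at least 1 and a 2-fold difference on that scale.

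Promoter sequences are shown for 3 isozyme pairs with a single annotated start each in which a germ-cell or muscle form was abundant and its counterpart was low, and for Gpi1, the gene with the largest difference. Each is the stretch of 250 bases before the start annotated by RefSeq on GRCm38.p6, read 5′ to 3′ on the strand of the gene, with CG dinucleotides in capitals.
Pgk2, germ-cell phosphoglycerate kinase, chr17:40208610-40208859, minus strand: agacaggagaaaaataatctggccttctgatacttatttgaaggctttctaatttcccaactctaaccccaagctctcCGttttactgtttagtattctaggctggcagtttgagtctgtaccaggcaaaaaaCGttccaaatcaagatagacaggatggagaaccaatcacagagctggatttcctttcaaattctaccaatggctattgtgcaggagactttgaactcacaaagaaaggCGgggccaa
Pgk1, its somatic counterpart, chrX:106186850-106187099, plus strand: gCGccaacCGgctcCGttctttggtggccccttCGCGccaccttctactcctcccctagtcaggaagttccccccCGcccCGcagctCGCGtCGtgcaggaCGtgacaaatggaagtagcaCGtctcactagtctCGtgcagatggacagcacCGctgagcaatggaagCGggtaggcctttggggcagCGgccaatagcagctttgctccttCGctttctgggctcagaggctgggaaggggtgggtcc
Pdha2, germ-cell pyruvate dehydrogenase alpha subunit, chr3:141212356-141212605, minus strand: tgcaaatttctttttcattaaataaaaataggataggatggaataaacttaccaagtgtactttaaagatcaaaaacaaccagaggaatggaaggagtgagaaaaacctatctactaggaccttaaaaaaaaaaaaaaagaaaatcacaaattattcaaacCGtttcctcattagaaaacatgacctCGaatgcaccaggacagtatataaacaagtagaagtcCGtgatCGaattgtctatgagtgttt
Pdha1, its somatic counterpart, chrX:160138431-160138680, minus strand: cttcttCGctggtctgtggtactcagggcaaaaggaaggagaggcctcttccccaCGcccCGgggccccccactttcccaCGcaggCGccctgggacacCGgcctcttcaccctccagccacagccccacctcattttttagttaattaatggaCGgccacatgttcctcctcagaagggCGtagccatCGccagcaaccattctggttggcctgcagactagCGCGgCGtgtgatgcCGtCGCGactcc
Pgam2, phosphoglycerate mutase of muscle and testis, chr11:5803797-5804046, minus strand: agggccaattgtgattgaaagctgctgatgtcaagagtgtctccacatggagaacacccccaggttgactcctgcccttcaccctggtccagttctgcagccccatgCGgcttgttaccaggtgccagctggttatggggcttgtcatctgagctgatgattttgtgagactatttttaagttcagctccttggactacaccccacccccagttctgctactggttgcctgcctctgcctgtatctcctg
Pgam1, its somatic counterpart, chr19:41911621-41911870, plus strand: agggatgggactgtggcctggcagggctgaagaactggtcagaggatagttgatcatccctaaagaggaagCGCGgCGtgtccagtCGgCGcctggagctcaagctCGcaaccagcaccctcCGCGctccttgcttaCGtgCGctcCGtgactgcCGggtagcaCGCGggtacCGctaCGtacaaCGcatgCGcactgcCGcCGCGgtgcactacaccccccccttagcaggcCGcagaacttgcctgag
Gpi1, glucose phosphate isomerase, chr7:34230337-34230586, minus strand: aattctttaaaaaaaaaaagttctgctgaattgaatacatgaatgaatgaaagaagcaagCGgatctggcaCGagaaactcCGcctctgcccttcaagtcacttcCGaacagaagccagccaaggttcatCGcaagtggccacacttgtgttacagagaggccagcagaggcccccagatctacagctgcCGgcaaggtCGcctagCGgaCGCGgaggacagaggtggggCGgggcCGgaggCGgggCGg

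The abundant form of each of these pairs had few CG dinucleotides before its start. Pgk2 had 3 against 17 at Pgk1, Pdha2 had 4 against 15 at Pdha1, and Pgam2 had 1 against 22 at Pgam1. Over all 32851 annotated windows of the same length the median was 6, with quartiles of 2 and 16, and Gpi1 had 14. Low CG content and a high level did not go together throughout. Ldha, which had an FPKM above 200 in both libraries, had 25 and 9 before its 2 annotated starts, whereas the weakly expressed Aldoc had 5 and 3. Windows were found for 34 of the 37 genes, 48 in all. For 36 of the 48, the 50 bases after the start occurred in a GENCODE M21 transcript of the same gene. Those of Pdha1, Pgam2 and Pgam1, printed above, did not, and the reason was not tested. The cAMP response element TGACGTCA, searched on both strands, was present in 1 of the 48 windows, at Ldha, against 1.55% of all windows. Its half-site TGACG, which is part of the full element, was in 9 of the 48 windows (18.8%), against 17.8% of all windows, and the GC box GGGCGG was in 20 (41.7%), against 32.7%. These matches describe letters only.

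**Figure D1:**
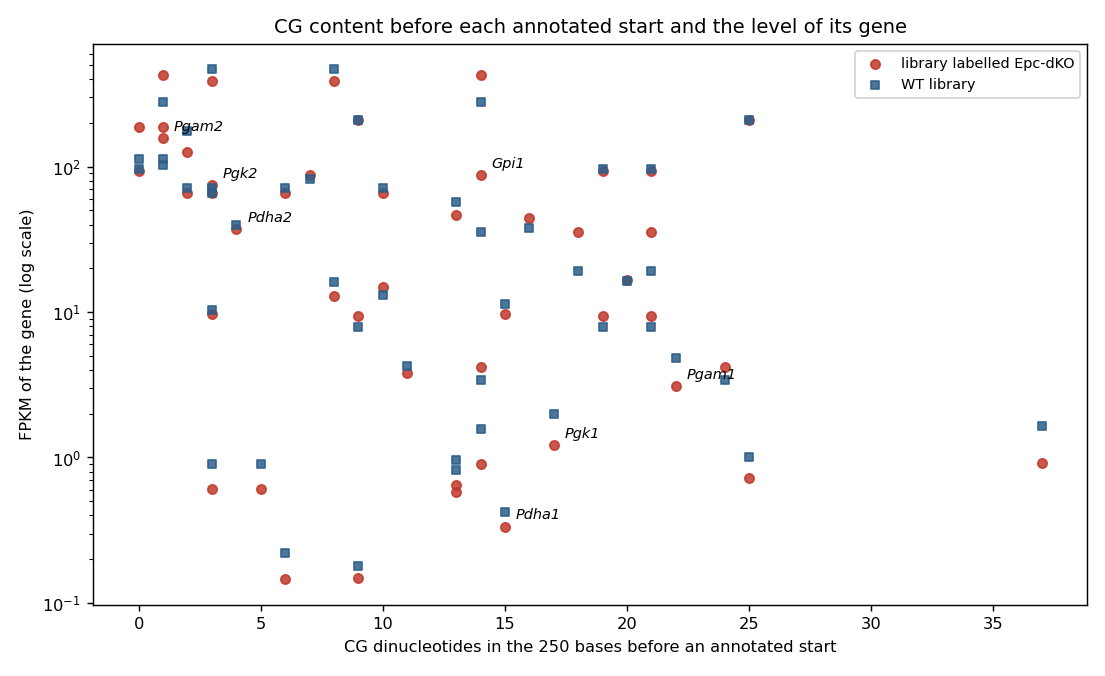
CG dinucleotides in the 250 bases before each annotated start of the genes (x axis, 48 windows of 34 genes) against the FPKM of the gene (y axis, log scale) in the library labelled Epc-dKO (red circles) and the WT library (blue squares). Pgk2, Pdha2 and Pgam2 sit at 1 to 4 CG and above 30 FPKM, their counterparts at 15 to 22 CG and below 5 FPKM, while other genes with many CG, among them Ldha, are also abundant.

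The pathway as a whole was expressed in both libraries to a similar extent. Of the 37 genes, 30 had a mean FPKM of 1 or more. Gpi1 was the single gene of the 30 (3.33%) that rose, against 2.75% of 10438 expressed genes, and none of the 30 fell, against 1.88%. These shares lie near the background. The median log2 ratio of the 30 genes was -0.02, with quartiles of -0.28 and 0.24, and that of all expressed genes was -0.05, with quartiles of -0.34 and 0.24. The 37 genes together held 1.28% of the summed FPKM of the library labelled Epc-dKO and 1.20% of that of the WT library. At a lower bar of 1.5-fold, 5 of the 30 genes were higher (16.7%), against 8.02% of expressed genes, and none was lower, against 10.8%. The 5 were Gpi1, Pkm2, Gapdhs, Hk1 and Pgam2.

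**Figure D2:**
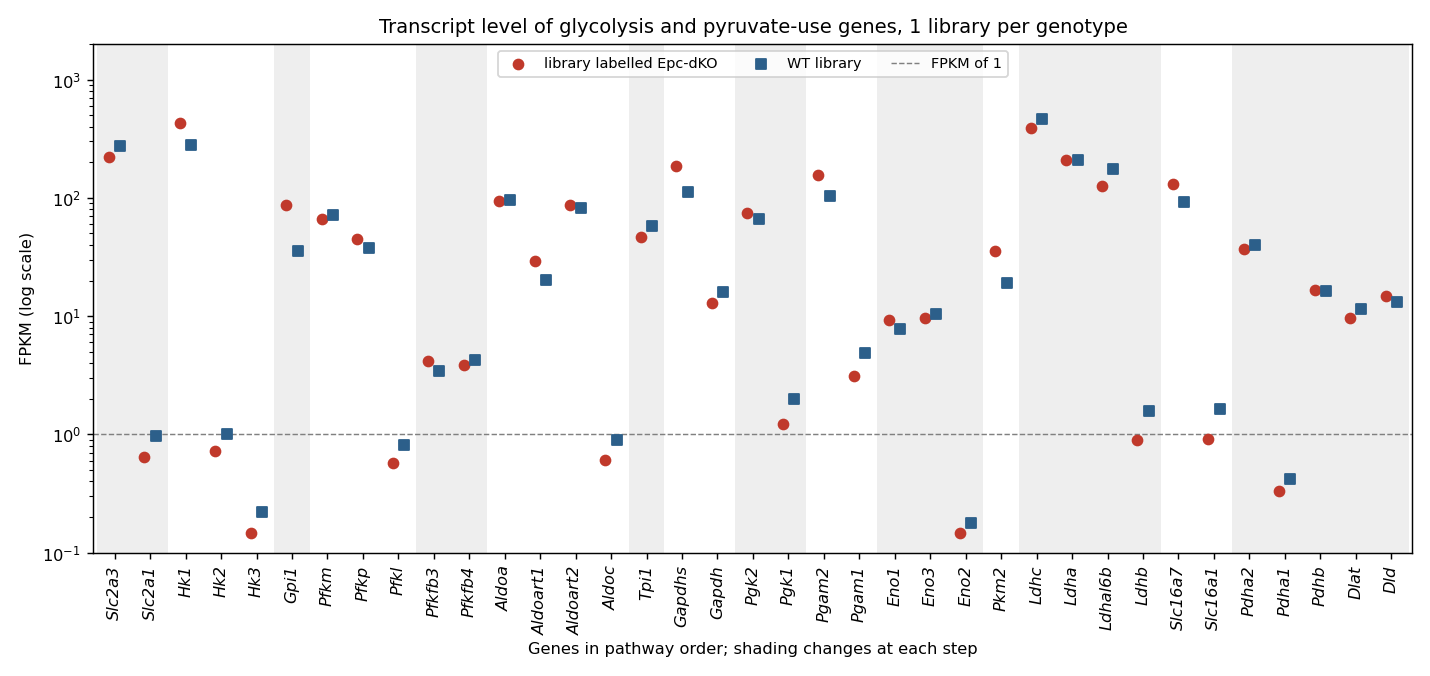
FPKM (y axis, log scale) of the 37 genes in pathway order (x axis), with 1 red circle for the library labelled Epc-dKO and 1 blue square for the WT library per gene. Both libraries hold the same division into abundant and low forms at nearly every step, with Ldhc, Hk1, Slc2a3 and the somatic Ldha above 200 FPKM and Hk3, Eno2 and Pdha1 below 0.5.

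Transcripts of 1 glucose carrier and 1 hexokinase outnumbered those of their counterparts. Slc2a3, which encodes the glucose transporter GLUT3, had an FPKM of 222 in the library labelled Epc-dKO and 273 in the WT library, a log2 ratio of -0.30. Slc2a1, for the widespread transporter GLUT1, had 0.650 and 0.968 FPKM in the same order of libraries, so GLUT3 transcripts made up 99.7% and 99.6% of the pair. Hk1, a hexokinase gene with testis-specific transcripts whose product phosphorylates glucose, had 429 FPKM in the library labelled Epc-dKO and 278 in the WT library, a log2 ratio of 0.62. Hk1 was thus 1.54-fold higher in FPKM, within the 2-fold rule, and ranked 26 among all genes in the library labelled Epc-dKO and 57 in the WT library. Hk2, the hexokinase of muscle and fat, had 0.727 FPKM in the library labelled Epc-dKO against 1.01 in the WT library, and Hk3, a blood cell form, had 0.145 against 0.221. The gene-level values do not separate the testis transcripts of Hk1 from its other transcripts.

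Gpi1, which encodes the isomerase that turns glucose phosphate into fructose phosphate, rose. Its FPKM was 87.7 in the library labelled Epc-dKO and 35.3 in the WT library, a 2.48-fold difference in FPKM and a log2 ratio of 1.29. The sequence of its longest coding transcript overlaps with that of other genes: 19.3% of its stretches of 50 bases also occur in another annotated transcript. Nearly all of these occur in Gm1840, which shares 18.6% and was not among the 23234 genes under that symbol. Reads from such stretches could have been assigned to either copy, and their part in the difference was not tested. Among the 1229 genes with a mean FPKM within 2-fold of that of Gpi1, 32 rose (2.60%). The promoter of Gpi1, printed above, held 2 GC boxes.

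The phosphofructokinases, which commit sugar to glycolysis, showed a mixture of isozymes and small differences. Pfkm, the muscle form, had 65.7 FPKM in the library labelled Epc-dKO and 70.9 in the WT library, and Pfkp, the platelet form, had 44.5 and 37.96. Pfkl, the liver form, was low at 0.575 and 0.816 FPKM. The 3 genes summed to 111 FPKM in the library labelled Epc-dKO and 109.7 in the WT library. The bifunctional enzymes that make and remove the activator of phosphofructokinase were also within the rule. Pfkfb3 had an FPKM of 4.20 against 3.40 in the WT library (log2 ratio 0.24), and Pfkfb4, a form known from testis, had 3.84 against 4.28 (-0.13).

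Aldolase splits the sugar into triose phosphates, and transcripts for it came from a somatic gene and its retrogenes in similar parts. Aldoa, the muscle form, had 93.7 FPKM in the library labelled Epc-dKO and 95.8 in the WT library, a log2 ratio of -0.03. The retrogene Aldoart2 had 87.8 and 81.8 FPKM in the same order (0.10), and the retrogene Aldoart1 had 29.1 and 20.3 (0.50). Together the retrogenes made up 55.4% of the aldolase FPKM in the library labelled Epc-dKO and 51.3% in the WT library, a difference of 4.01 percentage points. Aldoc, the brain form, had 0.603 and 0.901 FPKM. Retrogenes are close to their parent in sequence. The coding sequence of Aldoart1 was identical to that of Aldoa at 93.9% of paired bases and that of Aldoart2 at 91.6%, yet 5.79% and 0.311% of their stretches of 50 bases occurred in another gene. Of the stretches of 50 bases of Aldoa, 13.5% occurred in another gene, with 6.27% in Aldoart1. The division of reads between Aldoa, Aldoart1 and such other genes is therefore uncertain. Tpi1, for triosephosphate isomerase, which interconverts the trioses, had 46.8 FPKM in the library labelled Epc-dKO and 57.5 in the WT library (-0.29).

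The sperm form of glyceraldehyde phosphate dehydrogenase held a larger share of its pair in the library labelled Epc-dKO. Gapdhs, which encodes the enzyme bound to the fibrous sheath and needed for sperm motility in mice, had 187 FPKM in the library labelled Epc-dKO and 112 in the WT library, a log2 ratio of 0.73. Gapdh, the somatic form, had 12.9 and 15.99 FPKM in the same order of libraries, a log2 ratio of -0.29. Gapdhs accounted for 93.5% of the pair in the library labelled Epc-dKO and 87.5% in the WT library. Neither gene passed the 2-fold rule. Their coding sequences shared 71.7% of paired bases, and no stretch of 50 bases of Gapdhs occurred elsewhere, whereas 90.4% of those of Gapdh did, spread over 218 other annotated genes. The FPKM of Gapdh is therefore uncertain.

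Phosphoglycerate kinase yields the first ATP of the pathway, and its transcripts came nearly all from the retrogene. Pgk2 had 74.4 FPKM in the library labelled Epc-dKO and 65.9 in the WT library (log2 ratio 0.17), and the X-linked Pgk1 had 1.22 and 1.98 (-0.42). Pgk2 thus made up 98.4% and 97.1% of the pair, in the same order. Of the stretches of 50 bases of Pgk1, 68.0% occurred in another gene, chiefly Pgk1-rs7, and none of those of Pgk2 did. Pgam2, the phosphoglycerate mutase of muscle and testis, had 157 FPKM in the library labelled Epc-dKO and 103 in the WT library (0.60), and Pgam1, the widespread form, had 3.11 and 4.84 (-0.51). Of the stretches of 50 bases of Pgam1, 41.5% occurred in another gene, so its level is uncertain. The share of Pgam2 was 98.1% in the library labelled Epc-dKO and 95.5% in the WT library. Both pairs leaned the same way, with the abundant form higher and the low form lower in the library labelled Epc-dKO, all within the 2-fold rule.

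Enolase, which makes phosphoenolpyruvate, was close in summed level between the libraries. Eno3, the muscle form, had 9.65 FPKM in the library labelled Epc-dKO and 10.4 in the WT library, and Eno1, the widespread form, had 9.33 and 7.84. Eno2, the neuronal form, had 0.147 and 0.178 FPKM. The 3 genes summed to 19.1 FPKM in the library labelled Epc-dKO and 18.4 in the WT library. Eno4, a further enolase gene outside the 37, was more abundant than each of them, with 15.3 and 15.7 FPKM, and brought the sums to 34.4 and 34.1. Of the stretches of 50 bases of Eno1, 72.2% occurred in another gene, so its level is uncertain. Pkm2, the symbol used in the table for the muscle-type pyruvate kinase gene whose product makes pyruvate and ATP, had 35.6 FPKM in the library labelled Epc-dKO and 19.0 in the WT library. Its log2 ratio of 0.87 was the next largest after Gpi1, and 34.4% of its stretches of 50 bases occurred in another gene.

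**Figure D3:**
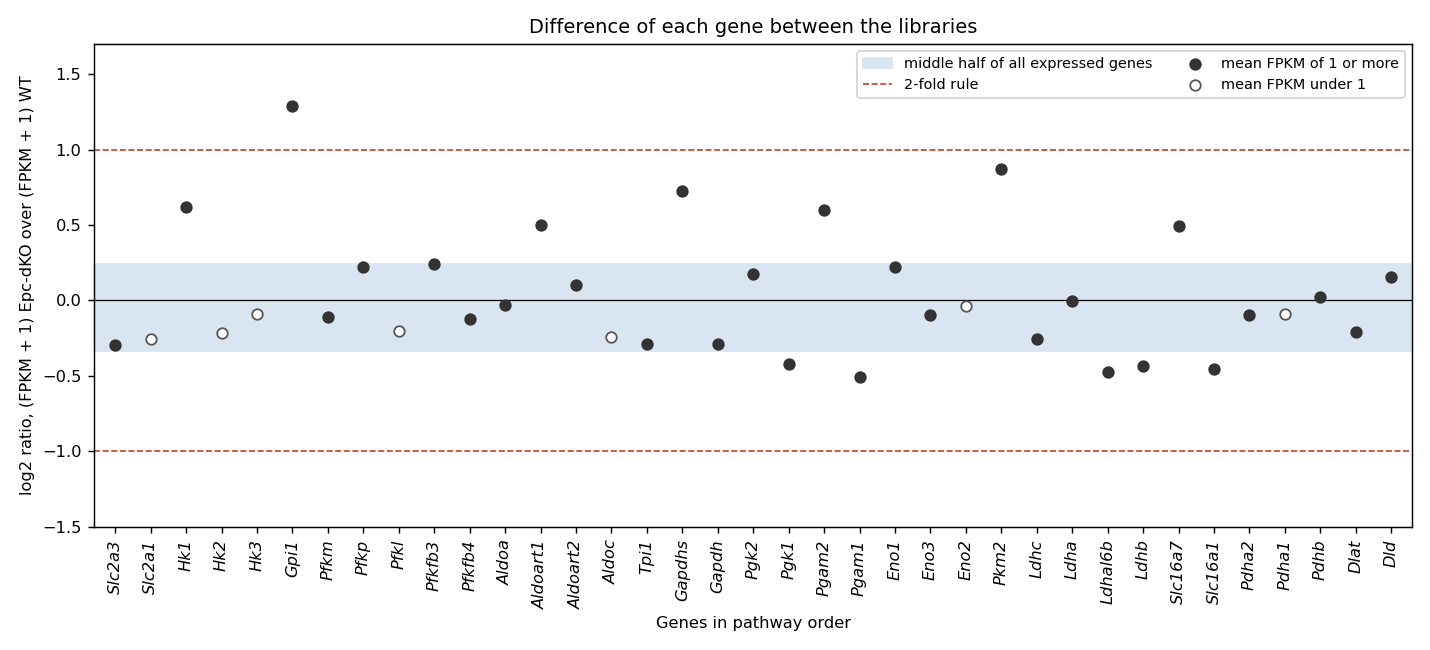
Log2 ratio of (FPKM + 1), library labelled Epc-dKO over WT library (y axis), of each gene in pathway order (x axis). Filled points have a mean FPKM of 1 or more, open points less, the band spans the quartiles of all expressed genes (-0.34 to 0.24) and the dashed lines mark the 2-fold rule, which Gpi1 alone passes at 1.29.

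Lactate dehydrogenase interconverts pyruvate and lactate, and its genes had the largest summed FPKM of the steps. The sum was 727 in the library labelled Epc-dKO and 853 in the WT library. Ldhc, the germ-cell form needed for sperm motility in mice, had 391 FPKM in the library labelled Epc-dKO and 466 in the WT library (log2 ratio -0.25). Among all genes Ldhc ranked 34 from the top in the library labelled Epc-dKO and 24 in the WT library. Ldha, the muscle form, was nearly equal at 209.6 and 210.2 FPKM. Ldhal6b, a testis-expressed member of the family, had 126 and 175 FPKM (-0.47). Ldhb, the heart form, had 0.900 and 1.57 FPKM (-0.43). Ldhc made up 65.0% of the summed FPKM of Ldhc, Ldha and Ldhb in the library labelled Epc-dKO and 68.8% in the WT library. Ldhc, Ldhal6b and Ldhb all had ratios below 0, whereas Gapdhs and Pgam2 had ratios above 0, all within the rule. Of the stretches of 50 bases of Ldhb, 27.0% occurred in another gene, and of those of Ldha, 16.6% did.

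Of the 2 genes for lactate and pyruvate carriers among the 37, Slc16a7, which encodes the monocarboxylate carrier MCT2, had nearly all of the FPKM. It had 131 FPKM in the library labelled Epc-dKO and 92.6 in the WT library, a log2 ratio of 0.49. Slc16a1, for the carrier MCT1, had 0.920 and 1.64 FPKM (-0.46), so Slc16a7 made up 99.3% and 98.3% of the pair. Its level was 142 times that of Slc16a1 in the library labelled Epc-dKO and 56.6 times in the WT library. Transcripts for the pyruvate dehydrogenase complex, which turns pyruvate into acetyl-CoA in mitochondria, lay close to the WT level. Pdha2 had 37.2 FPKM in the library labelled Epc-dKO and 39.8 in the WT library (-0.10), against 0.334 and 0.422 for the X-linked Pdha1, and made up 99.1% and 98.9% of the alpha subunit transcripts. Pdhb, for the beta subunit, had 16.6 and 16.3 FPKM (0.02), and 30.3% of its stretches of 50 bases occurred in another gene. Dlat, for the acetyltransferase, had 9.72 and 11.4 FPKM (-0.21), and Dld, for the dihydrolipoamide dehydrogenase that other complexes also use, had 14.8 and 13.2 (0.15). Transcripts of Pdha2 were 2.24 times as abundant as those of its partner Pdhb in the library labelled Epc-dKO and 2.44 times in the WT library.

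Summed by step, the library labelled Epc-dKO had more FPKM than the WT library at glucose phosphate isomerase (ratio 2.48), pyruvate kinase (1.87), glyceraldehyde phosphate dehydrogenase (1.56), hexokinase (1.54), phosphoglycerate mutase (1.48) and lactate transport (1.40). It had less at glucose uptake (0.813), triosephosphate isomerase (0.814) and lactate dehydrogenase (0.852). The remaining steps had ratios between 0.970 and 1.11. Most late spermatid markers were higher too. Of 11 such markers, among them the protamine gene Prm2 and the fibrous sheath scaffold gene Akap4, 8 rose, and their summed FPKM was 1780 in the library labelled Epc-dKO and 601 in the WT library. Prm2 had 675 against 82.8 FPKM in the WT library, Prm1 85.03 against 11.2, Tnp2 153 against 40.5, Tnp1 54.8 against 14.6, Spem1 28.7 against 8.02, Oxct2a 19.5 against 4.08, Tssk6 6.51 against 2.55 and Akap4 193 against 84.99. Odf1, for an outer dense fibre protein, had 290.1 against 179.7 FPKM and did not pass the rule, and Prm3 went the other way with 11.5 against 16.1 FPKM (log2 ratio -0.45). The 10 round spermatid markers, had none past the rule and summed to 678 and 665 FPKM, with Spata16 at 149.8 against 150.8 and Acr, for the acrosomal protease acrosin, at 131 against 117. The part of the late spermatid markers in the differences of Gpi1, Pkm2, Gapdhs, Hk1 and Pgam2 was not tested.

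**Figure D4:**
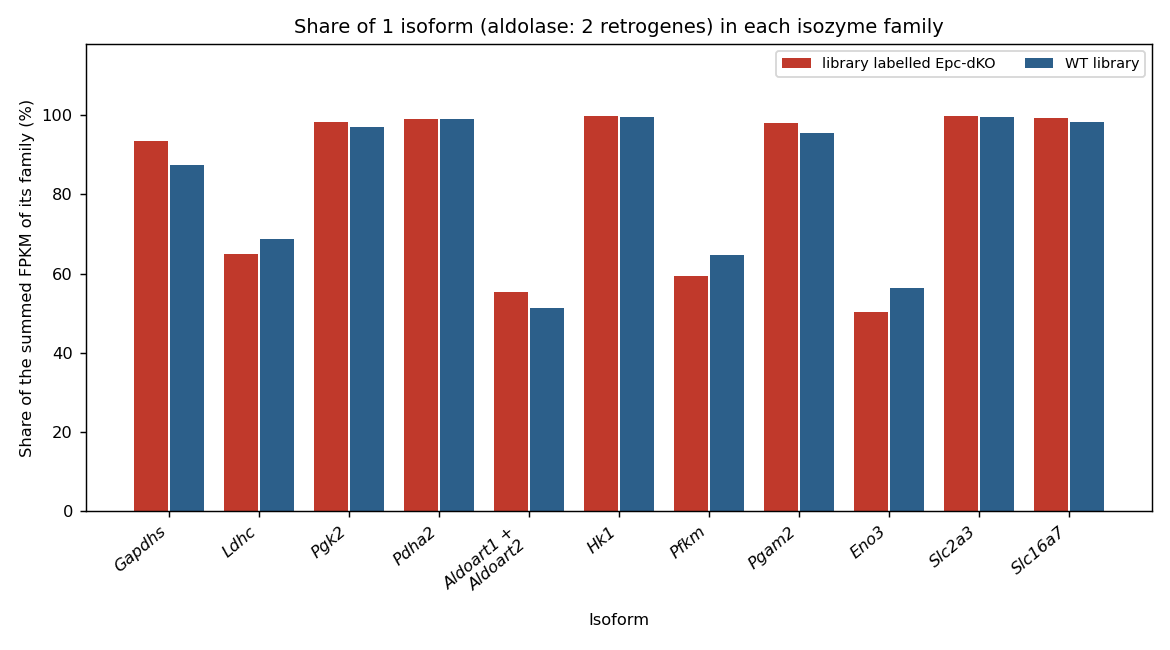
Share of 1 isoform (for aldolase, of Aldoart1 and Aldoart2 together) in the summed FPKM of the genes of its family that belong to the 37 (y axis, percent), in the library labelled Epc-dKO (red bars) and the WT library (blue bars), for 11 families (x axis). The share of Ldhc is an exception, since it is taken of Ldhc, Ldha and Ldhb and leaves out Ldhal6b. Each plotted share is above 50% in both libraries. In 6 of the families, added after seeing the data, the plotted isoform is the most abundant of those counted. A share above 50% partly follows from that choice. With Eno4 counted in, Eno3 holds 28.0% in the library labelled Epc-dKO and 30.5% in the WT library. Gapdhs at 93.5% and 87.5% and Eno3 at 50.4% and 56.5% show the widest gaps.

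Low-level members, most of them somatic counterparts, lay on 1 side. Of the 13 genes with a mean FPKM under 5, a group formed after the values were seen, 12 had a log2 ratio below 0, the exception being Pfkfb3. Of all 10246 genes between the level of the lowest of them and an FPKM of 5, 62.6% lay below 0. None of the 13 passed the 2-fold rule, and 7 had a mean FPKM under 1. In plain FPKM the ratios of Slc16a1, Ldhb, Pgk1 and Pgam1 were 0.562, 0.575, 0.619 and 0.642. Markers of some other testis cells were lower too, and others were not. All 10 expressed spermatogonial markers, of 12 listed, lay below 0, and the 12 summed to 18.3 FPKM in the library labelled Epc-dKO and 39.5 in the WT library. Id4, with a mean FPKM under 1, was the 1 listed marker above 0, with 1.14 against 0.630 FPKM in the WT library. Dmrt1 and Crabp1 fell, with 2.47 against 7.49 and 1.27 against 3.77 FPKM in the WT library, and Dazl had 3.44 against 7.42. Sertoli markers, of which 2 of 11 were expressed, summed to 8.497 and 13.9 FPKM, with Clu at 5.03 against 8.29 and Inha at 1.34 against 2.34. The Sertoli genes Sox9 and Amh had 0.180 and 0.0502 FPKM in the library labelled Epc-dKO against 0.192 and 0.166 in the WT library. Of the 11 Sertoli genes 9 lay below 0 and 2 above. Those above were Cldn11, with 0.586 against 0.566 FPKM, and Fshr, with 0.0227 against 0. Leydig cell markers summed to 40.1 and 57.3 FPKM, and 3 of the 11 expressed fell, Insl3 to 6.79 against 14.9, Agt to 3.54 against 8.96 and Ptgds to 3.09 against 9.29, while 5 of the 11 lay above 0, Cyp17a1 having 8.79 against 7.78, and the list median was -0.03. The 12 peritubular and stromal markers summed to 44.8 and 33.3 FPKM, where Actg2 rose to 36.2 against 15.3, Acta2 had 3.68 against 6.00, and 5 of the 6 expressed lay below 0. Of all 12, 11 lay below 0, Actg2 being the exception, so the higher sum does not describe the list as a whole. Of 12 spermatocyte markers Tex101 fell to 5.69 against 12.4 FPKM, Syce1 had 114.9 against 115.4 and Ccna1 61.2 against 87.5, and the 12 summed to 249.5 and 283 FPKM. Among endothelial, blood and immune markers Hba-a1 and Hbb-b1 were listed at 0 in both libraries, and the 11 genes summed to 5.93 and 6.80 FPKM, with Vwf at 2.31 against 2.60 and Kdr at 0.769 against 1.07. Of these 11 genes 7 lay below 0 and 2 above. The 2 were the immune markers Csf1r, with 0.739 against 0.301 FPKM, and Emr1, with 0.908 against 0.444, both with a mean FPKM under 1. In bulk RNA, fewer cells of a type and less RNA per cell cannot be told apart, and the part of these markers in the values of the somatic isoforms was not tested.

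Other genes of sugar and pyruvate metabolism, taken from 6 lists, had 77 expressed genes, of which 2 fell (2.60%), against 1.88% of all expressed genes, and 0 rose, against 2.75%. Both were among the 24 expressed of 41 further enzymes and regulators of glycolysis and pyruvate use (8.33%), which had a median log2 ratio of -0.26. Pcx, for pyruvate carboxylase, which turns pyruvate into oxaloacetate, fell to 2.33 FPKM in the library labelled Epc-dKO, against 6.14 in the WT library (log2 ratio -1.10). The most abundant of the list were Pgp, for phosphoglycolate phosphatase, with 85.2 and 131 FPKM, and Pdk2, for a kinase that switches off pyruvate dehydrogenase, with 119 and 87.9. Hexose and monocarboxylate carriers and sorbitol enzymes had 5 of 21 genes expressed, none past the rule and a median of 0.24. The sorbitol dehydrogenase gene Sord had 404 FPKM in the library labelled Epc-dKO and 304 in the WT library, and Slc2a5, for the fructose transporter GLUT5, had 238 and 253.

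The 8 expressed genes of the pentose phosphate pathway, which makes NADPH and ribose, had none past the rule and a median log2 ratio of -0.53. The testis retrogene G6pd2, for glucose phosphate dehydrogenase, stood apart from that median with 43.7 FPKM in the library labelled Epc-dKO and 24.4 in the WT library (0.82), and Tktl2, a transketolase-like gene, had 13.5 and 15.3. The list of the citric acid cycle, which burns the acetyl-CoA made from pyruvate, also holds linked enzyme genes such as Acly, Got1 and Got2. That list had 23 of 26 genes expressed, none past the rule and a median of -0.28. Its most abundant genes were Sucla2, for a succinate-CoA ligase subunit, with 82.2 and 100.6 FPKM, and Csl, a citrate synthase-like gene, with 67.6 and 83.2. Regulators of glycolysis and AMPK subunits had 10 of 19 genes expressed, none past the rule and a median of -0.32, with the oxygen sensor gene Egln2 at 127 and 142 FPKM and the kinase gene Stk11 at 62.3 and 63.6. Glycogen genes had 7 of 14 expressed, none past the rule and a median of -0.20. Among them the phosphorylase kinase genes Phkg2 and Phka2 had 333 and 6.72 FPKM in the library labelled Epc-dKO against 310.3 and 7.62 in the WT library. The medians of 5 of the 6 lists lay below that of all expressed genes, -0.05, and that of the carrier list lay above it. These lists were written with earlier results of the same libraries known and are a description.

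**Figure D5:**
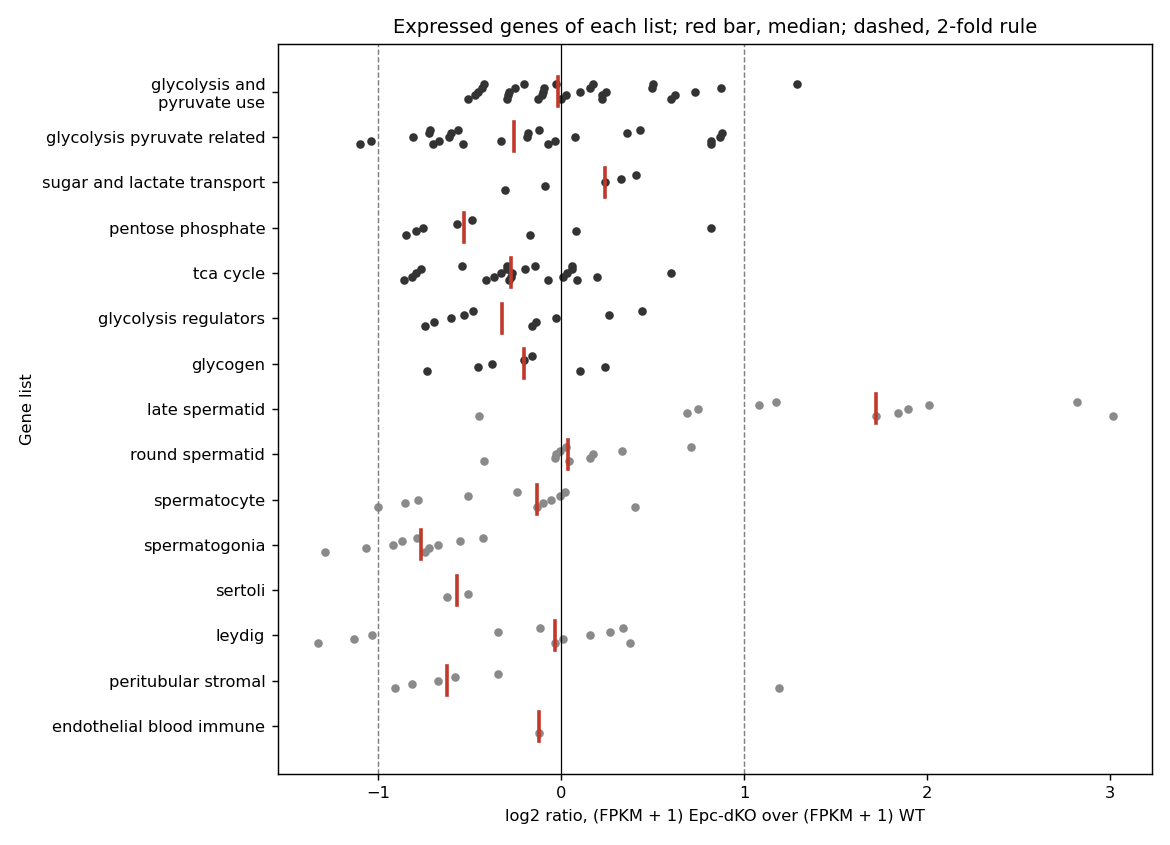
Log2 ratio of (FPKM + 1), library labelled Epc-dKO over WT library (x axis), of each expressed gene (points) in the glycolysis and pyruvate set, 6 related pathway lists and 8 lists of cell type markers (y axis), with the median of each list as a red bar and the 2-fold rule dashed. The glycolysis and pyruvate set centres at -0.02, late spermatid markers at 1.72 and spermatogonial markers at -0.77.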

How the data were processed

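Directional RNA-seq libraries were made from total RNA and sequenced on an Illumina HiSeq instrument, per the labels' protocols. The deposited values are FPKM per gene, made by the authors, with 1 column per library. Cufflinks 2.2.1 and the mm9 genome are named in the submitters' processing notes, with no role stated; the aligner, annotation, strand setting and scaling were not named by the sources used here. A row of library codes was left out, which left 23234 genes and 0 duplicated symbols. No column lacked a sample. Groups follow the genotype labels. With 1 library per genotype no test is possible and no p-value was computed.

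Log2 ratios used a pseudocount of 1, a minimum mean FPKM of 1 and a 2-fold rule. Every member is given. Of each other list the text gives genes past the rule and the 2 most abundant. Sox9, Amh, Csf1r, Emr1, Id4, Cldn11, Fshr and the list genes under Other observations were chosen after their values were seen. The values of 1 further gene past the rule are not reported here. The members and lists were chosen with earlier results of these data known. Isoform shares are percentages of the summed FPKM of a family, for 5 families of the planned set and 6 added after seeing the data. Ldhal6b was not counted in the family of Ldhc.

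Of 225 list entries 223 were used. Rhox5 was not analysed here, and Emr1 is an older name of Adgre1, which is counted once. Chromosomes, promoters and their letters are from RefSeq on GRCm38.p6, not mm9. Transcripts are from GENCODE M21, 1 per gene with the longest coding part. Coding sequences were aligned end to end with Biopython 1.88. Python 3.11.15, NumPy 2.4.6, pandas 2.3.3 and Matplotlib 3.10.9 were used. Alternatives were pseudocounts of 0.1 and 0.5, no minimum or a minimum of 5, 5 rescalings of the libraries, of which the sum without small RNA genes was chosen after seeing the data, and rules of 1.5-fold and 4-fold. Shares were also computed with a pseudocount and with the most abundant somatic isoform alone, and, chosen after seeing the data, with further family genes of the lists.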

Additional observations from a re-analysis of the deposited data

How the results depend on the processing

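Under the alternatives tried, Gpi1 kept a log2 ratio of 1.24 to 1.34 and stayed past the 2-fold rule, Pkm2 kept 0.83 to 0.92, Gapdhs 0.68 to 0.78, Hk1 0.57 to 0.68 and Pgam2 0.55 to 0.65. The 2-fold side of single members was kept in 402 of 407 comparisons, the other 5 being the 1.5-fold and 4-fold rules themselves. Of the 13 low members, 12 lay below 0 in every setting. Over the 10438 genes expressed on the deposited scale, no rescaling shifted the median by more than 0.05. Over the genes passing on the TPM scale, the median was -0.13, against -0.05 as deposited. With a 1.5-fold rule 5 members were higher, and 837 and 1127 of all genes were higher and lower. With a 4-fold rule 0 members, 76 and 59 genes were. On the TPM scale the median of the members was -0.14, and all genes counted 545 higher and 1054 lower, so that 34.1% of genes past the rule were higher there, against 59.4% on the deposited scale. Over all genes, a pseudocount of 0.1 gave 433 higher and 652 lower (39.9% higher), a pseudocount of 0.5 gave 364 lower, and a minimum of 5 gave 166 higher and 105 lower. Among the related lists, a pseudocount of 0.1 gave 4 lower enzymes of glycolysis and pyruvate use (median -0.43), 3 lower in the pentose phosphate pathway (-0.82), 2 in the citric acid cycle, 2 regulators (-0.43) and 1 glycogen gene. A pseudocount of 0.5 gave 1 lower pentose phosphate gene (-0.67) and 1 of the citric acid cycle. Without a minimum, the medians of related enzymes, carriers and regulators were -0.13, 0.0045 and -0.16. With a minimum of 5, related enzymes had 0 lower (median -0.11), and pentose phosphate, regulator and glycogen genes had medians of -0.17, -0.15 and -0.0286. The TPM scale gave 5 lower related enzymes, 1 lower carrier (median -0.12, the opposite sign), 3 lower pentose phosphate genes (-0.79), 3 of the citric acid cycle, 3 regulators (-0.52) and 1 glycogen gene (-0.46). At 1.5-fold, 4 related enzymes were higher and 9 lower, 1 pentose phosphate gene higher and 3 lower, 1 citric acid cycle gene higher and 4 lower, 3 regulators lower and 1 glycogen gene lower. At 4-fold, 0 related enzymes were lower. The TPM scale brings the sum of each library to 1000000, from 198081 for Epc-dKO and 193611 for WT. The added 1 and the minimum of 1 stayed as they were. The added 1 thus weighs less on that scale and the minimum is easier to pass, and 15151 genes passed it. The largest move of an isoform share was 3.24 points, except that counting Eno4 in put Eno3 at 28.0% in the library labelled Epc-dKO and 30.5% in the WT library. Leaving out the aldolase retrogenes leaves no germ-cell form to give a share. No paired analysis was possible because there is a single library of either genotype. With depth unknown, the precision of the low isoforms cannot be stated. How far the lower weight of the added 1 accounts for the TPM moves was not tested, nor were the causes of the other moves.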

Other observations

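Within the related enzymes, 8 genes chosen after their values were seen lay at 0.70 or more from 0 without passing the 2-fold rule, 4 on each side. Gpd2, for the mitochondrial glycerol phosphate dehydrogenase that feeds electrons from glycerol phosphate to the respiratory chain, had 64.8 FPKM in the library labelled Epc-dKO and 34.9 in the WT library (log2 ratio 0.88). Me1, for the cytosolic malic enzyme, which makes pyruvate and NADPH from malate, had 46.4 and 24.99 FPKM (0.87). Galm, for the mutarotase that interconverts forms of galactose and glucose, had 6.08 and 3.014 FPKM (0.82), and Pfkfb2, a further bifunctional regulator of phosphofructokinase, had 6.62 and 3.33 (0.82). On the other side, Pdk3, for a further pyruvate dehydrogenase kinase, had 7.63 FPKM in the library labelled Epc-dKO and 14.2 in the WT library (-0.81). Galk1, for galactokinase, had 4.33 and 7.81 FPKM (-0.72), Pfkfb1, another bifunctional regulator of phosphofructokinase, had 0.950 and 2.21 (-0.72), and Pgm2, for a phosphoglucomutase, had 0.619 and 1.63 (-0.70). In the citric acid cycle list, Acly, for ATP citrate lyase, chosen after its value was seen, had 5.94 and 11.6 FPKM (-0.86). Ogdhl, Idh3g and Mdh2 of that list had log2 ratios of -0.82, -0.79 and -0.76. Of its 23 expressed genes 16 lay below 0 and 7 above, the highest being Got1 at 0.60.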
